A study of Rattus norvegicus and Mus musculus with 251 samples.

Results

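Gm10263, Gm10260, BC002163, Gm10036, Gm12901 and BC023719 are 6 of the 46078 genes in a table of mouse brain read counts. They were chosen by their measured values, because earlier work on the same libraries had found each of them at a high level in some libraries and at or near 0 in others. Their division into high and low libraries is therefore what selected them, and it is given below as a description with no test. In the annotation 4 of the 6 are processed pseudogenes, 1 (Gm10260) is a protein-coding gene with a single exon, and 1 (BC023719) is an antisense transcript.

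A processed pseudogene, or retrocopy, is a spliced messenger RNA that was copied back into DNA and inserted elsewhere in the genome, so it lacks introns and resembles the gene it came from. Genes of ribosomal proteins, which every cell transcribes strongly, are known for having many such copies. Because a copy and its source differ at few bases, a short sequencing read can fit both, and whether it is counted to the copy, to the source or to neither depends on the differences it covers.

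The libraries were made from total RNA of punches, 0.5 mm wide, from the brains of C57BL/6J mice, an inbred laboratory strain, with 30 libraries from prefrontal cortex, written PFC below, and 32 from nucleus accumbens, written NAc. Mice of both sexes drank either saline or a morphine solution, and tissue was taken under saline, under chronic morphine, 24 h after morphine or 2 weeks after morphine. PFC held 3 female and 3 male saline libraries, 3 female and 5 male chronic libraries, 4 female and 5 male libraries at 24 h, and 3 female and 4 male libraries at 2 weeks. NAc held 3 and 4, 3 and 5, 4 and 5, and 3 and 5 libraries, in the same order. The labels put all mouse libraries in 1 batch. Each library carries a number, and 30 numbers occur in both regions. The labels give no source animal for a number, so p-values measure the spread between libraries, which may be partly technical.

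Only transcripts of coding genes were searched for matches. Of the 6 genes, 5 have as their best match the sense strand of such a transcript from elsewhere in the genome. Stretches of 4 of them are shown here, because the few bases that set a copy apart from its coding gene decide which reads can be counted to it. They are read 5′ to 3′ on the strand of each gene (GENCODE M21 transcripts, GRCm38), and capitals mark the bases at which the gene differs from its closest coding gene. Gm10263 lies on the forward strand, and bases 11 to 217 of its exon (chr13:73317854-73318060) hold 1 difference from Rps28.
Gm10263: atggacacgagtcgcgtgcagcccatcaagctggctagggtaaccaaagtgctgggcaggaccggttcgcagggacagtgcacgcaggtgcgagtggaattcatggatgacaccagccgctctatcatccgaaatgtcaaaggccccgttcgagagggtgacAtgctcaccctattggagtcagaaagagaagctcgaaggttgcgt
Gm10260 lies on the reverse strand, and 300 bases of its exon (chr13:97760158-97760457) hold 4 differences from Rps18.
Gm10260: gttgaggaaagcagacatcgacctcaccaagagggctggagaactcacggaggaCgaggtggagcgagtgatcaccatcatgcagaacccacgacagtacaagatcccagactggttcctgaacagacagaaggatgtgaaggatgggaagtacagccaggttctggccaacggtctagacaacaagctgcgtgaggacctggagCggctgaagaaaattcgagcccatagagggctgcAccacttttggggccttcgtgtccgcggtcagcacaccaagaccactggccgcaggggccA
BC002163 lies on the forward strand, and bases 1 to 300 of its exon (chr16:42955631-42955930) hold 2 differences from Ndufs5.
BC002163: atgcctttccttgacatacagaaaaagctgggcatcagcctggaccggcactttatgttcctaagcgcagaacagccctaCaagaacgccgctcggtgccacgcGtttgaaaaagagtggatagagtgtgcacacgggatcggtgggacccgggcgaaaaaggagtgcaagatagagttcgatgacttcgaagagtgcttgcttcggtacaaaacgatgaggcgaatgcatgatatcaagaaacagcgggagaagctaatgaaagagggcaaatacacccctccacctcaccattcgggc
Gm12901 lies on the forward strand, and bases 1 to 278 of its transcript (chr4:123258046-123258323) hold 16 differences from Rpl11, and it is shown for contrast with the near-identical copies.
Gm12901: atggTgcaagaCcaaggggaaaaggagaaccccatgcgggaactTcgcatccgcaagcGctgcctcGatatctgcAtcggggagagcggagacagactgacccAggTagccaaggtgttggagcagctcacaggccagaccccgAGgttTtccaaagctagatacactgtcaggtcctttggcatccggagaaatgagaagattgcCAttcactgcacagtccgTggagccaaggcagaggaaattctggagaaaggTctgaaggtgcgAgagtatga

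Over its whole length of 300 bases, Gm10263 was 99% identical to the transcript of Rps28, which encodes a protein of the small ribosomal subunit. Counting positions from 1 at the 5′ end of the copy and giving the copy's base first, the 3 differences are A173G, A226C and A265G, of which A173G falls in the coding sequence of Rps28. Gm10260 matched Rps18, another small-subunit gene, at 99.1% over 545 bases with the differences C230T, C381A, A415G, A475G and C521G. BC002163 matched Ndufs5, which encodes a subunit of mitochondrial complex I, at 99.4% over 319 bases with C81T and G105A. Gm10036 was 99.3% identical to Rpl11, a large-subunit gene, with 4 mismatches in 534 bases. Gm12901 also aligned best to Rpl11, but at 90.7% with 39 mismatches over 540 aligned columns. The closest match of BC023719 among transcripts of coding genes was the reverse strand of a retained-intron transcript of H2-T22. H2-T22 is a nonclassical major histocompatibility complex (MHC) class I gene, and the match was 96.4% over 880 columns. On its own strand BC023719 aligned to Rps6, another small-subunit gene, at 65.6% over 687 columns.

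How much of each gene a read can be assigned to follows from these differences. With windows of 75 bases, the length of 1 read of a pair, 36.3% of the windows of Gm10263 occurred in no transcript of another locus, as did 40.4% for BC002163, 45.8% for Gm10260 and 45.9% for Gm10036. The windows shared with the closest coding gene made up 43.4%, 59.6%, 47.2% and 53.7% of these genes, in that order. The remaining windows of Gm10263, Gm10260 and Gm10036 occurred only in transcripts of still other loci. Of the windows of BC023719, 85.1% occurred in no transcript of another locus. Genes overlapping BC023719 were not counted as another locus, so some of these windows can also lie in them. All windows (100%) of Gm12901, which overlaps no annotated gene, occurred in no transcript of another locus. Reads of Gm12901 can thus be told from those of Rpl11 along its whole length, whereas the counts of the 4 near-identical copies rest on reads over a few positions.

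The 6 genes are spread over 5 chromosomes. Gm10263 (ENSMUSG00000066407; chromosome 13, 73317844 to 73318143) lies between genes without overlapping any, 1695 bases from Ndufs6. Gm10260 (ENSMUSG00000069117; chromosome 13, 97760072 to 97760632) lies within the opposite-strand noncoding gene Gm26619, and BC002163 (ENSMUSG00000081824; chromosome 16, 42955631 to 42955949) within the body of Zbtb20 on the same strand. Gm10036 (ENSMUSG00000058064; chromosome 18, 15832794 to 15833327) overlaps no other annotated gene. Gm12901 (ENSMUSG00000083720; chromosome 4, 123258046 to 123258904) has 2 exons and lies between Heyl and Pabpc4, 3447 bases from the latter. BC023719 (ENSMUSG00000092365; chromosome 17, 36111426 to 36117121) has 2 exons in the MHC region and overlaps H2-T-ps, Gm7030 and H2-T10, all on the opposite strand. Whether the authors' counting used strand is not stated. It is therefore not known whether reads from the overlaps of BC023719 with the genes opposite to it, and of Gm10260 with Gm26619, were told apart.

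Totals of reads counted to genes ran from 22387525 to 43963295 in NAc and from 24936879 to 41532464 in PFC, apart from PFC library 10 with 5182601. That library had 21.1% unaligned reads and the next highest, PFC 13, had 1.92%. The labels call the cell type neuron, but the punches also held glial RNA, with median levels of 2662 CPM (a gene's counts relative to its library's total over all genes, scaled to a common total) for the oligodendrocyte gene Mbp and 85.5 CPM for the astrocyte gene Aqp4 in PFC. The striatal gene Drd1 lay between 71.6 and 283.7 CPM in NAc except in libraries 6, 25, 23 and 2, with 9.75, 12.2, 32.9 and 35.3 CPM, and the cortical gene Slc17a7 reached 626.4 CPM in NAc library 24. The libraries numbered 27, labelled female, had 0 CPM (PFC) and 1.02 CPM (NAc) of the X-inactivation RNA Xist and 50.7 and 77.3 CPM of the Y-linked gene Ddx3y. They are called the libraries labelled female 27, and groups of females below follow the labels and include them.

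The main pattern was the same in every one of the 6 genes. Libraries 1 to 3 and 8 to 17 were low and libraries 4 to 7 and 18 to 32 were high, in PFC as in NAc, where PFC has no library 4 or 12. For each gene and region, the levels (log2 CPM with a prior count of 2) were sorted and divided at the largest gap between neighbours that left at least 3 libraries on each side. This put 19 of 32 NAc libraries on the high side for all 6 genes, and 18 of 30 PFC libraries for 5 of them. For Gm12901 in PFC it put 19 on the high side, because library 10, with 0 counts in a small total, sat above the other libraries at 0 on this scale. By labels, the high libraries were all saline males, all chronic libraries, all females at 24 h and 3 of 5 males at 24 h. The low ones were all saline females, the other males at 24 h (16 and 17) and all libraries at 2 weeks.

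**Figure D1:**
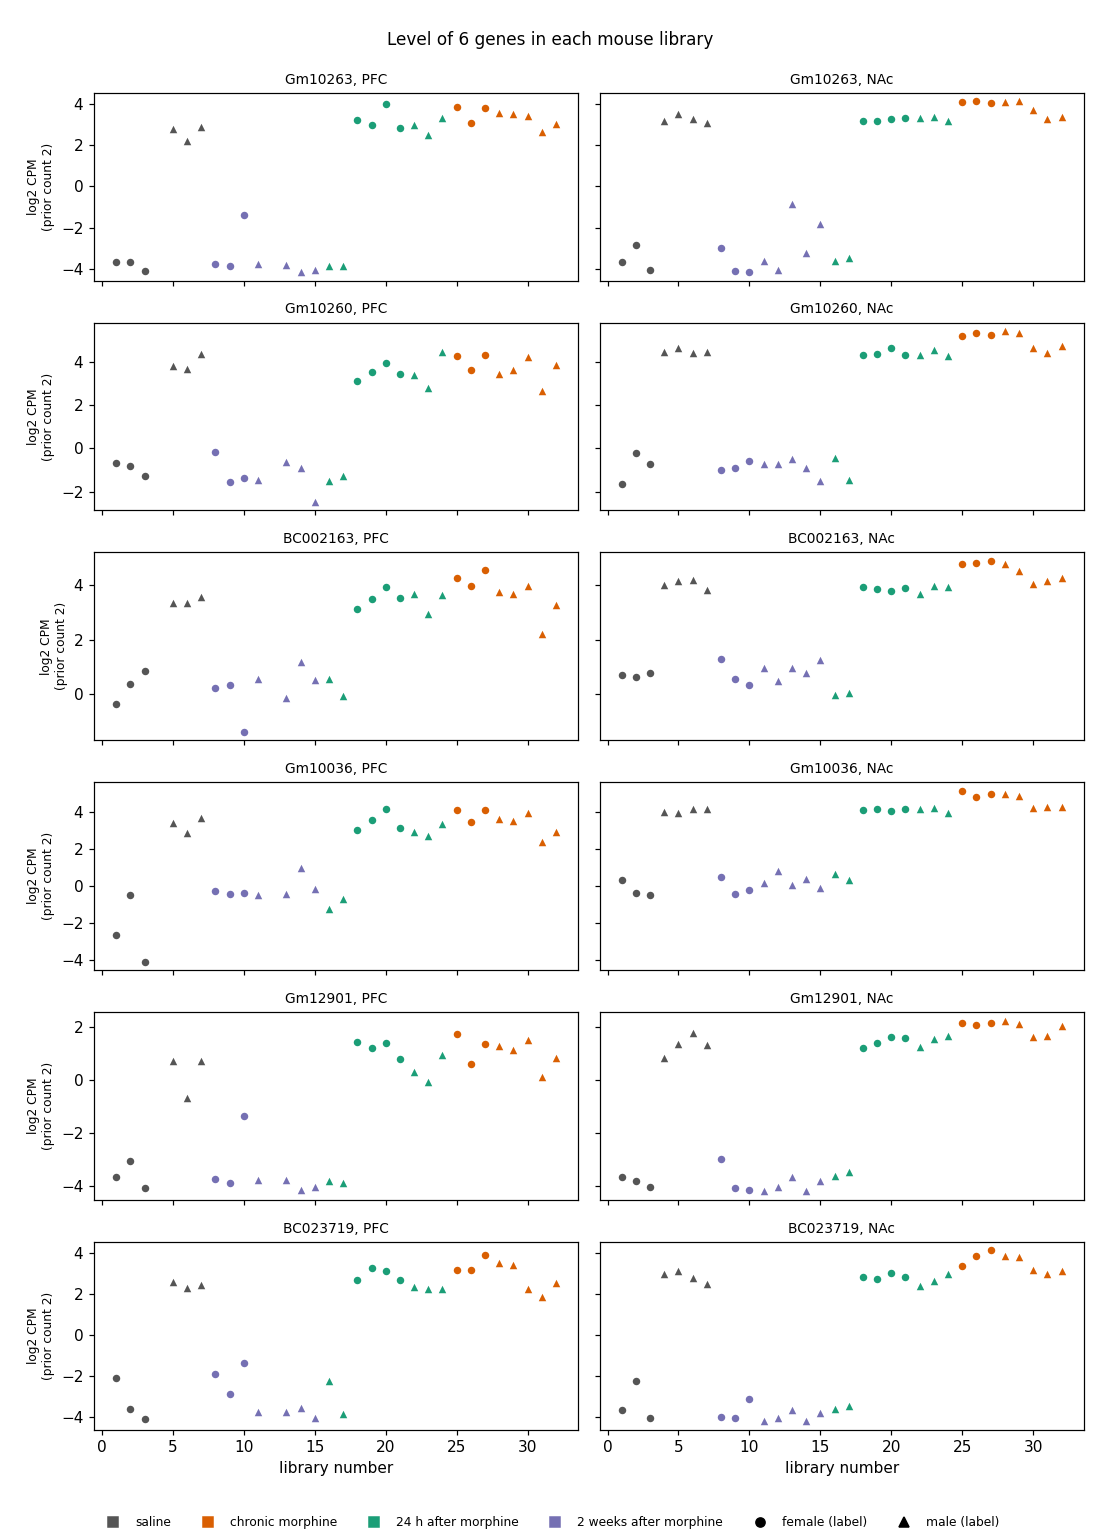
Level of each gene (log2 CPM, prior count 2) by library number, for PFC (left) and NAc (right), 1 point per library, with stage by colour and labelled sex by marker. Libraries 1 to 3 and 8 to 17 form the lower band and 4 to 7 and 18 to 32 the upper band in each panel, and PFC 10, with 5182601 counts in all, sits above the other libraries that have 0 counts.

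Gm10263, the copy of Rps28, had the largest gap of the 6 genes in PFC (3.545 on the log2 scale), whereas in NAc its gap of 3.93 was smaller than those of Gm10260 and BC023719. In PFC it had 0 counts in each of the 12 low libraries, where 3 counts would be 0.0847 to 0.120 CPM in 11 of them and 0.579 CPM in library 10. The saline males 5, 6 and 7 had 6.73, 4.43 and 7.23 CPM. The chronic libraries labelled female, 25, 26 and 27, had 14.1, 8.25 and 13.8 CPM. The chronic males 28 to 32 had 11.5, 11.04, 10.4, 6.14 and 7.90 CPM. At 24 h the females 18 to 21 had 9.03, 7.77, 15.8 and 6.99 CPM, the males 22 to 24 had 7.82, 5.44 and 9.64 CPM, and the males 16 and 17 had 0 counts. No low library had a count, and no high library was under 4.43 CPM. Against a floor of 3 counts over the saline females, the females at 24 h were at least 285.2-fold higher in CPM. Against the same floor over the males at 2 weeks, the saline males were at least 256.8-fold higher.

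In NAc, Gm10263 had 0 counts in 7 of the 13 low libraries and at most 12 (library 13) in the others, against 219 to 596 counts in the 19 high ones. In the high libraries its level ran from 8.37 to 17.2 CPM, against at most 0.473 CPM in the low ones. The same-numbered libraries of the 2 regions stood on the same side for all 30 numbers.

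Gm10260, the single-exon relative of Rps18, was low but rarely at 0. In NAc the saline females had 0.236, 0.778 and 0.538 CPM and the saline males 21.6, 24.6, 21.2 and 21.9 CPM. The chronic libraries labelled female had 36.1, 40.8 and 37.7 CPM and the chronic males 42.8, 39.9, 24.8, 21.5 and 26.96 CPM. At 24 h the females had 19.7, 20.4, 25.1 and 19.9 CPM and the males 22 to 24 had 20.1, 23.7 and 19.5 CPM, while the males 16 and 17 had 0.647 and 0.268 CPM. All libraries at 2 weeks lay between 0.280 and 0.630 CPM. Low and high libraries therefore lay 4.52 apart on the log2 scale at their nearest, between 0.778 and 19.5 CPM.

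In PFC, Gm10260 showed the same sets at lower and more scattered levels. The low libraries ran from 0 to 0.826 CPM and the high ones from 6.17 to 22.2 CPM, with 1 low library (number 10) at 0. Saline males had 13.8, 12.6 and 20.2 CPM, and saline females 0.552, 0.481 and 0.349 CPM.

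BC002163, the copy of Ndufs5, kept a measurable low level. In NAc the saline females had 1.57, 1.49 and 1.65 CPM (40 to 55 counts), and all low libraries lay between 0.890 and 2.37 CPM. The saline males had 15.9, 17.6, 18.4 and 14.1 CPM. The chronic libraries labelled female had 27.5, 28.4 and 29.7 CPM and the chronic males 27.7, 23, 16.6, 17.7 and 18.99 CPM. The females at 24 h had 15.4, 14.5, 13.9 and 14.9 CPM and the 5 males at that time 0.890, 0.938, 12.7, 15.5 and 15.3 CPM. In PFC the low libraries reached 2.23 CPM and the high ones began at 4.62 CPM (chronic male 31), so the gap there, 1.03 on the log2 scale, was the smallest of all 6 genes.

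Gm10036, the near-identical copy of Rpl11, ran from 0.658 to 1.68 CPM in the low NAc libraries and from 15.3 to 35.5 CPM in the high ones. The chronic libraries labelled female stood at 35.5, 28.2 and 31.6 CPM and the saline females at 1.18, 0.708 and 0.658 CPM. In PFC it ran from 0 to 1.89 CPM and from 5.21 to 17.99 CPM, and the saline females had 2, 16 and 0 counts against 315, 197 and 436 in the saline males. The sets did not overlap in either region.

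Gm12901, the diverged relative of Rpl11, had the lowest CPM of the 6 in the high libraries. In NAc 12 of its 13 low libraries had 0 counts and the other (number 8) had 2, against 1.69 to 4.71 CPM in the high libraries. In PFC the only low library with a count was number 2, with 1, and the high libraries other than number 10 had 0.549 to 3.28 CPM. The same libraries were high as for the near-identical copies, although its 75-base windows occur in no transcript of another locus.

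BC023719, the antisense transcript in the MHC region, had 0 counts in 11 of 13 low NAc libraries and at most 4 counts in the other low ones. The high NAc libraries ran from 5.17 CPM in male 22 at 24 h to 17.6 CPM in the library labelled female 27. In PFC, 7 of 12 low libraries had 0 counts and the rest at most 5, and the high ones ran from 3.64 to 15.2 CPM. The saline males had 5.96, 4.80 and 5.37 CPM there, and the saline females 0.158, 0 and 0 CPM.

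The 2 regions repeated each other number by number. Of the 30 numbers present in both, 18 were high in both regions and 12 low in both for 5 genes, and for Gm12901 number 10 alone was placed differently, with 0 counts in both of its libraries. The pair of numbers that occurs only in NAc, 4 and 12, was high and low, in that order, for all 6 genes.

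**Figure D2:**
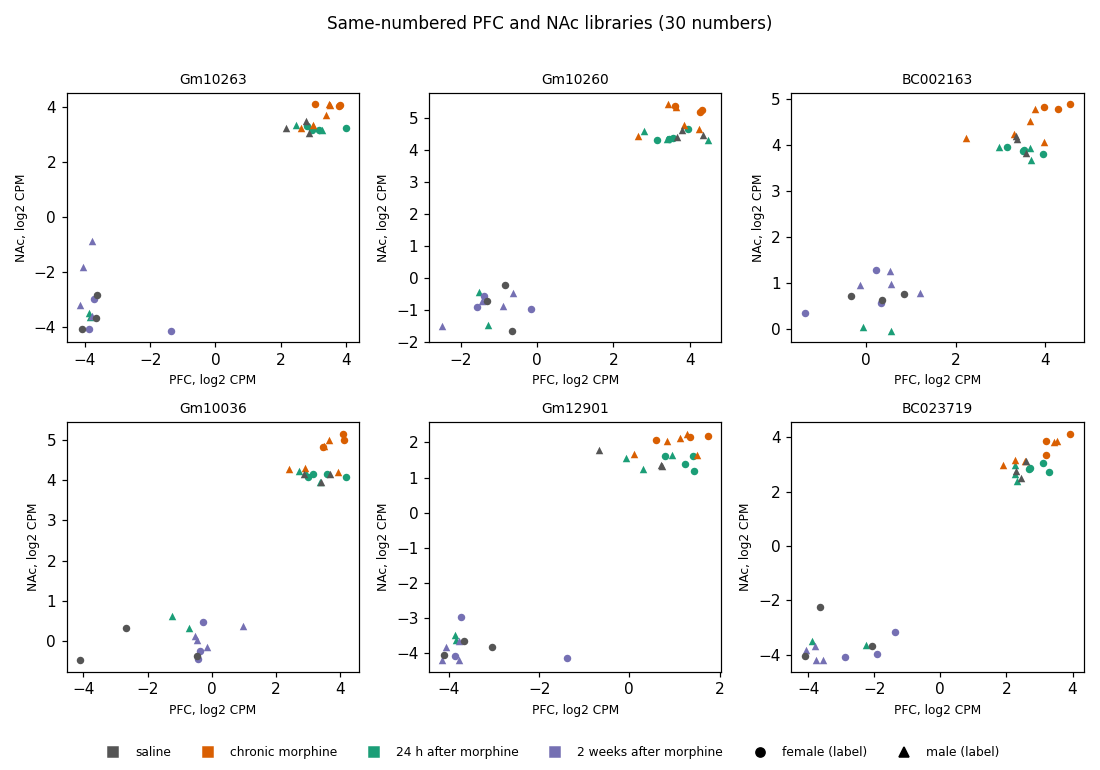
Level of each gene in the PFC library (x axis, log2 CPM) against the NAc library of the same number (y axis, log2 CPM), 1 point for each of 30 numbers, with stage by colour and labelled sex by marker. Points fall at the lower left or the upper right, and number 10, to the right of the other low points for Gm10263, Gm12901 and BC023719, had 0 counts of these in PFC.

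Levels of different genes can be set side by side only per length. Per kilobase of annotated exon, BC002163 ran from 39.9 to 92.97 CPM per kilobase in the high NAc libraries, Gm10260 from 34.7 to 76.3, Gm10036 from 28.6 to 66.5, Gm10263 from 27.9 to 57.2, BC023719 from 5.28 to 17.98 and Gm12901 from 3.17 to 8.85. The ranges of the first 4 overlapped one another, as did those of BC023719 and Gm12901, and the 2 sets did not overlap. No correction was made for the bases at which a copy cannot be told from its source.

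The same gap was computed for every gene. Over the 17402 genes tested in both regions, the median largest gap was 0.14 in PFC and 0.12 in NAc on the log2 scale. The smallest gaps among the 6 genes were 1.03 in PFC and 2.40 in NAc, both of BC002163. Of the other 17396 genes, 0.684% had a PFC gap at least as large, 15 had an NAc gap at least as large, and 13 had gaps at least as large in both regions. On this scale the largest gap gave the same high libraries in both regions in 1 other gene, A930015D03Rik, and in NAc in 6 genes, of which 4 lie on chromosome 17. PFC library 10, with its small total, can stand above other libraries at 0 counts on this scale, so a gene can be divided the same way in its counts and not be among these. Chromosome 17 holds 4.69% of the genes tested in both regions.

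**Figure D3:**
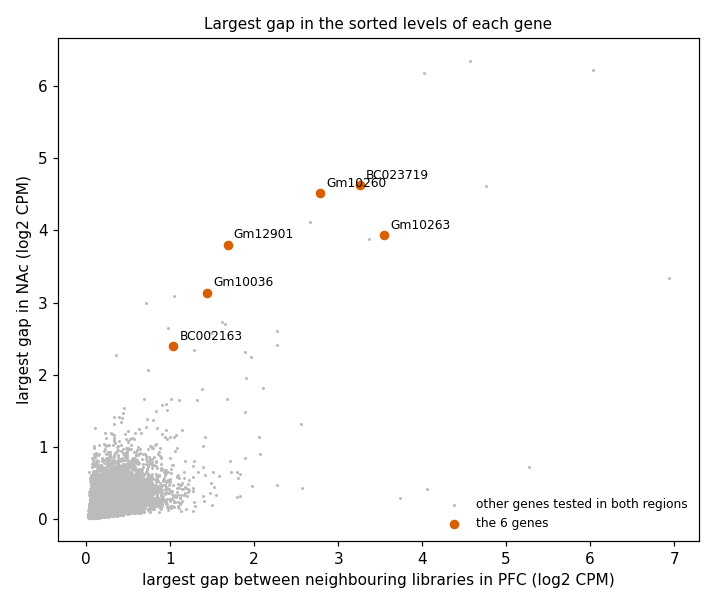
Largest gap between neighbouring libraries in the sorted levels of each of 17402 genes, in PFC (x axis, log2 CPM) and NAc (y axis, log2 CPM). The 6 genes (orange) lie at or above 1.03 in PFC and 2.40 in NAc, where 13 other genes (grey) are also found, some with larger gaps.

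The genes most like the 6 were found from their Pearson correlation with the mean z-score of the 6 over 62 libraries, centred within each region, which is a description across libraries that fall into separate clusters. The highest were Gm18733 (0.95), A930015D03Rik (0.94) and Gm7125 (0.93). Gm18733, an unprocessed pseudogene at chromosome 17, 35278176 to 35279414, had 0 counts in every low library of both regions, 4 to 48 counts in the high PFC libraries and 5 to 44 in the high NAc libraries. A930015D03Rik, an antisense transcript at chromosome 17, 35994453 to 36038435, had at most 0.883 CPM in the low and at least 1.77 CPM in the high PFC libraries. It overlaps H2-T22 by 1308 bases on the opposite strand. Gm7125, a long noncoding RNA on chromosome 15, had at most 1 count in the low NAc libraries and 0.682 to 3.13 CPM in the high ones. In PFC its ranges overlapped, with up to 0.361 CPM in the low libraries and 0.355 CPM or more in the high ones.

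At the other end stood Gm5900 (-0.85), Gm15459 (-0.78) and Hmgn2 (-0.76). Gm5900, a processed pseudogene on chromosome 7, was at 1.081 to 9.25 CPM in the NAc libraries where the 6 genes are low and at 0.283 to 1.25 CPM where they are high. Gm15459, a processed pseudogene on chromosome 5, ran from 194.3 to 359.4 and from 53.5 to 248.6 CPM in the same libraries, and Hmgn2, which encodes a nucleosome-binding protein, from 28.4 to 47.2 and from 11.9 to 31.5 CPM. All 3 pairs of ranges overlapped.

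A further step was visible within the high libraries, and it was looked for after the levels had been seen. For each copy, the share of its counts in the summed counts of the copy and its closest coding gene was taken, which is a ratio of counts and not corrected for length. Among the high libraries the largest gap of this share set apart the same 5 libraries, 25 to 29, for Gm10263, Gm10260, BC002163 and Gm10036 in both regions and for Gm12901 in NAc. These are the 3 chronic libraries labelled female and 2 of the 5 chronic males. For Gm12901 in PFC the gap set apart 25, 28 and 29 only.

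Gm10260 and Rps18 are described first. In NAc, Gm10260 made up 0.213% to 0.751% of the summed counts in the low libraries, 20.3% to 24.2% in 14 high libraries, and 42.4% to 47.7% in libraries 25 to 29. In PFC the same shares were 0% to 1.65%, 16.7% to 28.7% and 41.99% to 45.01%. The 3 sets of shares did not overlap in either region.

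The other copies stepped at the same libraries but at other shares. Gm10263 made up 11.4% to 16.8% of its sum with Rps28 in the 14 NAc libraries and 24.9% to 29.4% in 25 to 29. BC002163 made up 24.1% to 32.4% and 46.6% to 51.8% of its sum with Ndufs5, after 1.97% to 4.47% in the low libraries. Gm10036 made up 10.4% to 14.9% and 21.3% to 26.01% of its sum with Rpl11. Gm12901, with Rpl11, made up 1.46% to 2.72% and 3.76% to 4.21%.

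**Figure D4:**
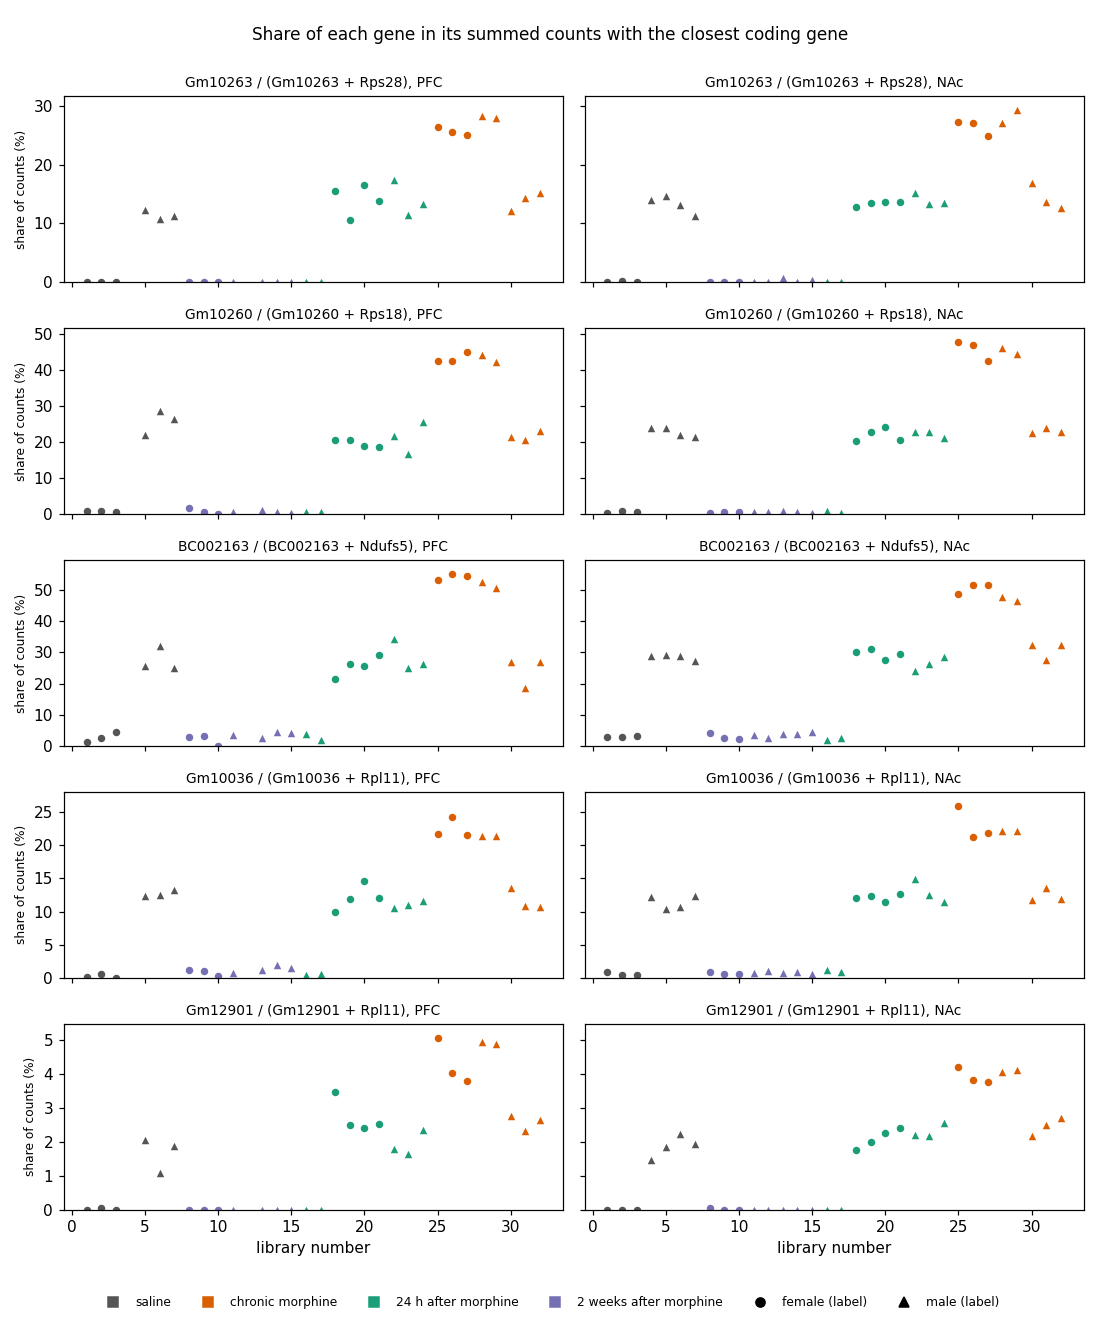
Share of each copy in the summed counts of the copy and its closest coding gene (y axis, %), by library number, PFC left and NAc right, with stage by colour and labelled sex by marker. In NAc the shares of Gm10260 lie at 0.213% to 0.751%, 20.3% to 24.2% and 42.4% to 47.7%, with libraries 25 to 29 at the top.

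In CPM the step was visible in NAc and not in PFC for most genes. Gm10260 had 36.1 to 42.8 CPM in NAc libraries 25 to 29 and 19.5 to 26.96 CPM in the other high ones, and Gm10036 had 28.2 to 35.5 and 15.3 to 19.5 CPM. BC023719 had 10.3 to 17.6 CPM in libraries 25 to 29 and 5.17 to 9.01 CPM in the other high ones, which also did not overlap. The largest gap of NAc CPM set apart exactly libraries 25 to 29 for Gm10263, Gm10260 and Gm10036. It set apart 25 to 28 for BC002163, 26 to 29 for BC023719, and 25 to 29 with 32 for Gm12901. In PFC, Gm10260 had 10.8 to 19.98 CPM in 25 to 29 and up to 22.2 CPM elsewhere.

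In NAc, Rps28, Rps18, Ndufs5 and H2-T22 were lowest in libraries 25 to 29, where the shares of the copies were highest. Their levels were not used to choose the 6 genes, but the relatives were found through them. Counts of Rps28, Rps18 and Ndufs5 are also part of the shares that set libraries 25 to 29 apart. That these 3 genes were lowest there is therefore partly built in, whereas H2-T22 is part of no share. Under saline, the 6 genes are low in females and high in males. Rps28, Rps18 and Ndufs5 in NAc and H2-T22 in PFC were higher in saline females than in saline males, without overlap. For H2-T22 in NAc these ranges overlapped. The edgeR values of the coding relatives under chronic morphine thus depend on the division that chose the 6 genes. They are given as a description and not as a test. Rps18 had 110.7, 104.6 and 99.7 CPM in NAc of saline females, 68.9 to 80.98 CPM in saline males, and 39.5 to 51.2 CPM in libraries 25 to 29. The 3 remaining chronic males had 68.6 to 91.6 CPM. Averaged over the sexes, Rps18 fell under chronic morphine in NAc by 0.62 ± 0.11 on the log2 scale (SE, edgeR adjusted p = 0.00427). In PFC its log2 fold change was -0.97 ± 0.27 (SE, edgeR adjusted p = 0.153).

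Ndufs5, the closest coding gene of BC002163, fell under chronic morphine in NAc by 0.53 ± 0.08 on the log2 scale (SE, edgeR adjusted p = 0.00127), and its value in PFC was -0.89 ± 0.21 (SE, edgeR adjusted p = 0.0551). It had 50.5 to 55.6 CPM in NAc of saline females, 37.5 to 45.2 CPM in saline males and 26.3 to 30.2 CPM in libraries 25 to 29. Rps28 had 41.1 to 49.7 CPM in NAc libraries 25 to 29 and 54.1 CPM or more in all others. Its log2 fold change was -0.36 ± 0.10 in NAc (SE, edgeR adjusted p = 0.0553), and that of Rpl11 was -0.21 ± 0.08 (SE, edgeR adjusted p = 0.152). These 2 did not pass the threshold in either region.

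H2-T22, the MHC class I gene that matches BC023719 in reverse, was lowest in the same libraries. In PFC it had 16.3, 13.8 and 12.1 CPM in saline females, 5.79, 5.68 and 7.12 CPM in saline males, and 0.913, 0.542, 0.385, 0.565 and 0.432 CPM in libraries 25 to 29, while the chronic males 30 to 32 had 9.65, 5.82 and 7.51 CPM. In NAc the libraries 25 to 29 stood at 1.63 to 1.72 CPM and the others at 4.35 CPM or more. It fell under chronic morphine by 2.43 ± 0.44 on the log2 scale in PFC (SE, edgeR adjusted p = 0.00358) and by 1.60 ± 0.25 in NAc (SE, edgeR adjusted p = 0.00127). With the library labelled female 27 left out, the values were -2.29 in PFC (edgeR adjusted p = 0.0322) and -1.61 in NAc (edgeR adjusted p = 0.00616).

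**Figure D5:**
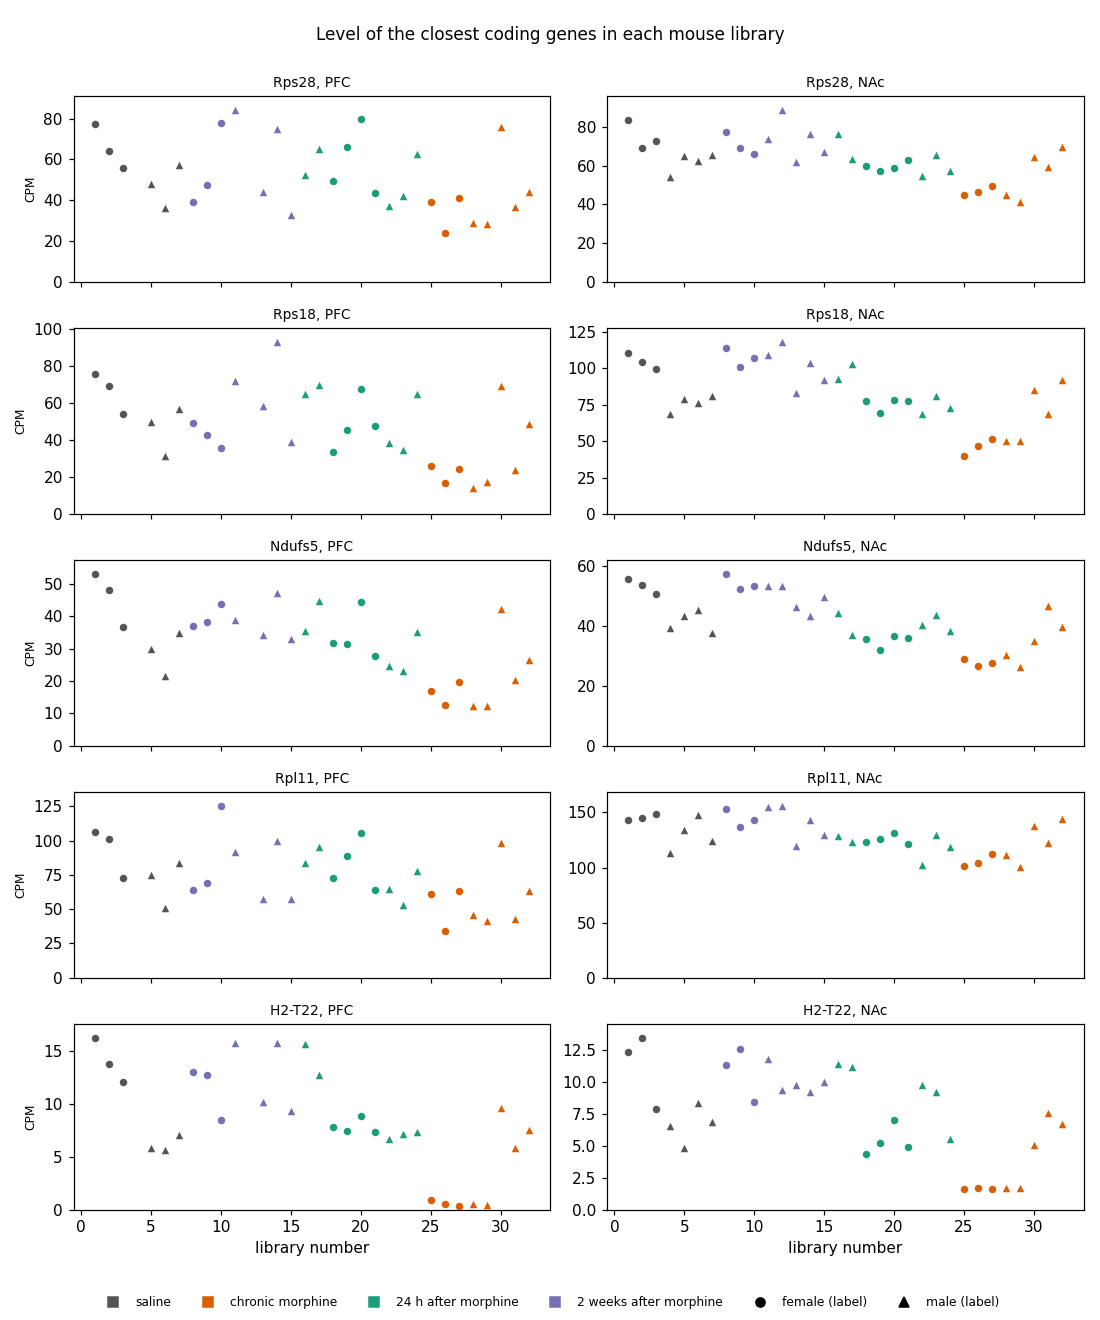
Level of the closest coding genes Rps28, Rps18, Ndufs5, Rpl11 and H2-T22 (y axis, CPM) by library number, PFC left and NAc right, with stage by colour and labelled sex by marker. Libraries 25 to 29 lie lowest for Ndufs5 and H2-T22 in both regions and for Rps28 and Rps18 in NAc, with H2-T22 at 1.63 to 1.72 CPM in NAc.

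The summed level of a copy and its source was taken over the same libraries. Gm10260 and Rps18 together had 100.2 to 110.9 CPM in NAc of saline females, 90.5 to 103.7 CPM in saline males and 75.6 to 92.8 CPM in libraries 25 to 29. BC002163 and Ndufs5 together had 52.2 to 57.2, 51.6 to 63.6 and 49.3 to 57.9 CPM in these libraries, which overlapped throughout. Gm10036 and Rpl11 together had 144.3 to 148.998, 129.4 to 165.1 and 129.2 to 144.2 CPM. Gm10263 and Rps28 together had 69.1 to 83.4 CPM in saline females and 58.2 to 66.2 CPM in libraries 25 to 29, and Gm12901 and Rpl11 143.1 to 148.3 and 104.8 to 116.97 CPM. The sums of saline females and of libraries 25 to 29 overlapped for BC002163 and not for the other 4 copies in NAc. Against the low NAc libraries 8 to 15, only the sums with Gm12901 (119.5 to 156.2 CPM) did not overlap those of 25 to 29. In libraries 8 to 15 the sums were 83.9 to 118.7 CPM with Gm10260, 62.2 to 88.8 with Gm10263 and 120.5 to 157.9 with Gm10036. With BC002163 they were 44.8 to 59.7 CPM. In PFC the sums spread more widely, and Gm10260 and Rps18 together had 54.2 to 76.2 CPM in saline females and 24.6 to 45.4 CPM in libraries 25 to 29.

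Within a region, contrasts of stage and sex use the very levels that chose the 6 genes, so their fitted values describe and do not test. The cells that were compared were mostly all high or all low, and a fold change averaged over the sexes mixes saline females at the low level with saline males at the high level. In NAc under chronic morphine it was 3.39 ± 0.53 (log2, SE) for Gm10260, 2.92 ± 0.40 for Gm10036 and 2.31 ± 0.39 for BC002163. In PFC it was 2.47 ± 0.60, 3.07 ± 0.60 and 2.05 ± 0.44 for these genes. At 24 h the NAc values were 2.30 ± 0.51, 1.91 ± 0.39 and 1.22 ± 0.37, and at 2 weeks -2.70 ± 0.65, -1.80 ± 0.44 and -1.50 ± 0.40. For Gm10263, Gm12901 and BC023719, whole cells are at or near 0 and the fitted fold change depends on the prior count, so no size is read from it.

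The comparison with saline within 1 sex shows the mixture plainly. Among females, Gm10260 in NAc went from 0.518 ± 0.272 CPM under saline (SD, n = 3) to 38.2 ± 2.4 under chronic morphine (SD, n = 3), 21.3 ± 2.6 at 24 h (SD, n = 4) and 0.512 ± 0.095 at 2 weeks (SD, n = 3). Among males it went from 22.3 ± 1.5 CPM (SD, n = 4) to 31.2 ± 9.5 (SD, n = 5), 12.8 ± 11.4 (SD, n = 5) and 0.497 ± 0.132 (SD, n = 5). The SD among males at 24 h spans males 16 and 17 at the low level and 3 males at the high level. Among the chronic females, the library labelled female 27 (37.7 CPM) lay between the other two.

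By edgeR with a Benjamini-Hochberg adjusted p under 0.05, chronic morphine called 6 of the 6 genes in NAc, where 1.69% of all 18382 genes tested were called, and 5 of 6 in PFC, where 0.417% of 17966 were. PFC gave 1 of 6 without library 1, 2 of 6 without library 2, 5 or 6, and 3 of 6 without library 3, 7, 27, 28 or 29. With stage alone in the model and sex left out, chronic morphine called 0 of 6 in either region.

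At 24 h, edgeR called 1 of 6 (Gm10036) in NAc, where 0.163% of genes were called, and 0 of 6 in PFC, where 0.0779% were. All 6 had an unadjusted p under 0.05 in each region, and DESeq2 called 6 in NAc and 4 in PFC. In NAc the count was 6 without male 16 or male 17, 2 without library 13, and 0 without any one of libraries 1 to 7 and 18 to 24. In PFC it was 3 without male 16 or male 17 and 1 without library 10. At 2 weeks edgeR called 0 of 6 in NAc and in PFC, where 0.00544% and 0.00557% of genes were called. In each region 4 of 6 had an unadjusted p under 0.05, and DESeq2 called 4 in NAc and 1 in PFC. The NAc count was 1 without library 17, and 5 with stage alone in the model.

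Between the sexes edgeR called 0 of 6 (0.0598% of genes in NAc, 0.0334% in PFC), with 4 in NAc and 2 in PFC at an unadjusted p under 0.05 and 0 by DESeq2 in either region. The difference between the sexes in their stage effects was called for 2 of 6 in NAc (Gm10036 and Gm10260, 0.0544% of genes) and for 0 of 6 in PFC (0% of genes, with 846 at an unadjusted p under 0.05 and 48 by DESeq2). All 6 had an unadjusted p under 0.05 for it in both regions, and DESeq2 called 6 in both. In NAc the count was 0 without library 27, without library 32 or without any one of libraries 1 to 6, it was 6 without 16 or 17, and it was 1 without any one of 7 to 15, 18 to 22, 25, 28, 30 and 31. In PFC it was 2 without library 10, 16 or 17. None of these counts supports a statement about the 6 genes, since the levels that chose them are the levels tested.

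The level in NAc against PFC was not used in the choice and was tested over both regions. All 6 genes had a higher fitted level in NAc, where 66.6% of 19266 genes were called in either direction and the median gene was 0.06 higher on the log2 scale. Gm10036 was higher by 0.73 ± 0.21 (log2, SE, edgeR adjusted p = 0.00227) and Gm10260 by 0.65 ± 0.25 (log2, SE, edgeR adjusted p = 0.0205). Gm12901 at 0.67 ± 0.32 (edgeR adjusted p = 0.0567), BC002163 at 0.38 ± 0.19 (0.0630), Gm10263 at 0.32 ± 0.32 (0.385) and BC023719 at 0.13 ± 0.30 (0.721) did not pass the threshold. Without the libraries numbered 16, or without those numbered 17, 4 of the 6 genes passed it. With library number as a block, more of the 6 genes passed it than in this fit, as given in the closing section. Their coding relatives gave 0.69 ± 0.07 for Rpl11 (edgeR adjusted p = 1.57e-12), 0.67 ± 0.10 for Rps18 (4.28e-08), 0.27 ± 0.08 for Ndufs5 (0.00171) and 0.16 ± 0.08 for Rps28 (0.0793). In tissue, fewer cells of a type and less RNA per cell cannot be told apart.

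The families around the 6 genes are given by their counts and medians, with no test. Of 5998 processed pseudogenes in the annotation, 1074 were tested in NAc, and edgeR called 12 higher and 7 lower under chronic morphine (1.77%, against 1.69% of all genes). In PFC 1023 were tested, with 4 higher and 1 lower (0.489%, against 0.417% of all genes). Gm10263, BC002163, Gm10036 and Gm12901 are the 4 higher in PFC and are among the 12 higher in NAc. These 4 were chosen by their levels in the same libraries, and apart from them only the 1 lower gene was called in PFC. The PFC share is therefore not read as a result about processed pseudogenes. In NAc the share, with these 4 included, is near that of all genes. The 85 cytosolic ribosomal protein genes tested had a median log2 fold change of -0.13 in NAc, where 3 were called, all lower (3.53%). In PFC their median was -0.38 and 0 were called. The 46 complex I genes had medians of -0.01 in NAc, where 1 was called lower (2.17%), and -0.14 in PFC, where 0 were called. That 1 gene is Ndufs5, and Rps18 is 1 of the 3 ribosomal protein genes called. Both were found through the 6 genes, and their values depend on the division that chose these. The NAc shares are therefore not read as results about the 2 families. Over all genes tested the medians were -0.01 in NAc and 0.01 in PFC.

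Among the annotated neighbours of the 6 genes that were tested, only H2-T10 in NAc was called under chronic morphine. Of all genes tested, 1.69% were called in NAc and 0.417% in PFC. Neighbours that did not pass the low-count filter were not tested. Ndufs6, next to Gm10263, had log2 fold changes of 0.04 ± 0.07 in NAc and -0.16 ± 0.18 in PFC (SE, edgeR adjusted p = 0.835 and 0.922). Zbtb20, which contains BC002163, had 0.42 ± 0.23 and 0.58 ± 0.27 (SE, edgeR adjusted p = 0.407 and 0.608). Pabpc4 and Heyl beside Gm12901, Chst9 beside Gm10036, Gm26619 opposite Gm10260 and H2-T-ps opposite BC023719 were not called in either region. The noncoding gene 5330416C01Rik, beside Gm10260, was not called in PFC (edgeR adjusted p = 0.887). H2-T10, which overlaps BC023719 by 1246 bases on the opposite strand, had a log2 fold change of 1.81 ± 0.28 in NAc (SE, edgeR adjusted p = 0.00127). In PFC it had 0.73 ± 0.50 (SE, edgeR adjusted p = 0.788). In NAc it had 0.316 to 1.21 CPM in the libraries where the 6 genes are low and 1.84 to 4.88 CPM where they are high. Saline males 4 to 7 were already among the latter, at 1.84 to 2.49 CPM, so the NAc value is a description.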

How the data were processed

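The members and the lists were chosen with earlier results of these data known. The authors deposited raw counts per gene for 62 mouse libraries; the submitters' processing notes list GRCm38 and Rnor_6.0 with FastQC, cutadapt, STAR, RSEM, Trimmomatic and HISAT2, without roles. The counting program, its strand setting and the annotation are not given in the sources used here. Rows for unassigned reads, among them a row for reads without a unique alignment and a row for ambiguous reads, and for 2 reporter sequences were left out. This left 46078 genes. The 189 rat libraries were not used.

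CPM was computed from each gene's count and the library's total over all genes. Counts were tested with edgeR 4.0.16 (quasi-likelihood, TMM, filterByExpr) in R 4.3.3, on all genes, with Benjamini-Hochberg adjustment and a threshold of 0.05. Each region had its own fit with a mean per stage and sex, and NAc against PFC was fitted over both. The procedure was tested on simulated data. DESeq2 1.42.0 was an alternative, as were other size factors, no filter, stage alone, a block on library number, other divisions and leaving out each library. Leaving out libraries 10 and 13, a robust fit and the second gap were chosen after seeing the data.

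Transcripts of each gene were aligned with blastn 2.17.0+ to GENCODE M21 transcripts (GRCm38) of protein-coding genes other than the 6. The best-scoring gene was taken as the closest, so a closer pseudogene or noncoding gene would not be found. Named genes are the 6 genes, these closest genes, genes overlapping or next to them, and the 3 genes with the highest and the 3 with the lowest correlation with their mean z-score. Totals ranged from 5182601 to 43963295 counts. Floors of 3 counts cover counting error only.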

Additional observations from a re-analysis of the deposited data

Results flagged for a closer look

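Among 54 groups of 4 or 5 libraries examined, 1 held a library far from the rest, and chance gives about 1 in 20 groups. Gm10260 stood at 4.652 (log2 CPM) in the NAc library of female 20 at 24 h, and the other 3 females at 24 h stood between 4.306 and 4.358.

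The fitted term for a difference between the sexes in their stage effects in NAc had an edgeR adjusted p of 0.0202 for Gm10036 and 0.0434 for Gm10260. These levels chose both genes, so the values are a description and not a test. Neither was called without library 32, without any one of libraries 1 to 6, or without library 27, which is labelled female and had 1.02 CPM of Xist and 77.3 CPM of Ddx3y.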

How the results depend on the processing

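Counts of the 6 genes called moved most with the tool and the model. DESeq2 called 6 at 24 h in NAc, 4 at 24 h in PFC, 4 and 1 at 2 weeks in NAc and PFC, and 6 for the sex difference of the stage effects in each region. With stage only, chronic morphine called 0 in NAc and 0 in PFC, 24 h called 0 in NAc and 2 weeks called 5 in NAc. With no filter, 24 h called 2 in PFC, and the sex difference of the stage effects 4 in NAc and 5 in PFC. Without the libraries with few counts or many unaligned reads, 24 h called 2 and the sex difference of the stage effects 1 in NAc; a robust fit gave 1 for the latter. For NAc against PFC, median-of-ratios size factors gave 4 of 6 called.

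Leaving out each library in turn gave 0 to 6 called at 24 h in NAc and 0 to 3 in PFC, 0 to 1 at 2 weeks in NAc, 1 to 6 for chronic morphine in PFC, 0 to 6 and 0 to 2 for the sex difference of the stage effects in NAc and PFC, and 2 to 4 for NAc against PFC. Chronic morphine in NAc gave 6 in every such fit. The log2 fold change of Gm10036 at 2 weeks in PFC ranged from -1.21 to 0.40 in these fits (positive without library 2), and that of BC023719 between the sexes in PFC from -0.00545 (without library 14) to 1.30. That of BC023719 in NAc against PFC was -0.03454 with DESeq2. The cause was not tested.

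With the library number as a replicate block, 5 of the 6 genes were called between NAc and PFC. The labels give no source animal for a number, so no pairing was assumed in the main fit. Deviations of the 30 same-numbered pairs correlated at 0.00751 to 0.216 (median 0.0683), with 5 pairs over 0.1. Of the 30 libraries in each region, 14 in PFC and 9 in NAc correlated best with their own number in the other region, which is a hint from the data and not from the design. For 5 of the 6 genes, same-numbered libraries stood on the same side for all 30 numbers. BC002163 had 5 high libraries in PFC when divided by its share, and 30 in NAc when divided at 1 CPM. In PFC library 10, with 5182601 counts, the floor of 3 counts is 0.579 CPM.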
